A study of Mus musculus with 4 samples.

Results

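Gene deserts are long stretches of the genome with no annotated gene. Here they were taken as fixed windows of 10 kb on chromosomes 1 to 19 that held at least 20 CpGs in the methylation files and lay at least 200 kb from every gene interval of the expression files. The rule gave 33928 windows of 219144 with at least 20 CpGs, or 15.5%. They lay in 709 gaps between genes and held 1228556 listed CpGs, 8.68% of those on the autosomes. The rule used no methylation level and no RNA value. Of 41601 windows that far from genes with any listed CpG, 81.6% had at least 20, against 92.6% of all windows.

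The cells were mouse E14Tg2a embryonic stem cells, either unmodified (WT) or mutated in Tet1, Tet2 and Tet3 (TetTKO). The mutant was made by transient transfection of px330 vectors with guide RNAs to the 3 genes together with a puromycin resistance vector, from cells grown in 2i medium, which holds the MEK inhibitor PD0325901 and the GSK3 inhibitor CHIR99021. Surviving clones were picked after selection, and the number of clones behind each TetTKO library is not stated by the labels. TetTKO and WT cells were adapted together for at least 17 days to serum culture, which for this line means 15% fetal bovine serum and 1000 units/ml of LIF on gelatin. According to the labels, mass spectrometry found no 5-hydroxymethylcytosine in TetTKO DNA. RNA of the targeted genes was still measured in TetTKO. Tet1 had 15.06 FPKM (fragments per kilobase of transcript, scaled to sequencing depth) in WT and 4.36 in TetTKO, Tet2 14.86 and 4.13, and Tet3 0.32 and 0.27. Each genotype had 1 whole-genome bisulfite library and 1 RNA-seq library, so no difference below has a replicate check and no p-value is given. All 10 stem cell markers examined, among them Pou5f1, had at least 16.3 FPKM in both libraries, and the 8 fibroblast markers summed to 1.90 FPKM in WT and 2.66 in TetTKO, with Dcn listed at 0 in WT and Lum in both.

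A CpG is the usual site of DNA methylation in mammals. Dnmt3a and Dnmt3b set new methylation, Dnmt1 with Uhrf1 copies it at replication, and the Tet enzymes oxidise 5-methylcytosine to 5-hydroxymethylcytosine and beyond, which leads to its removal. Bisulfite sequencing reads 5-methylcytosine and 5-hydroxymethylcytosine alike. Deserts are poor in CpGs and CpG islands, many lie in late-replicating chromatin at the nuclear periphery, and some hold distant enhancers of developmental genes.

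The autosomal CpGs had 131671740 read calls in WT and 148888474 in TetTKO. Desert windows held a median of 273 read calls in WT and 316 in TetTKO, and 90% of them lay between 167 and 570 and between 196 and 642. Their coverage per CpG had a median of 8.30 and 9.68, against 8.91 and 10.3 in windows wholly inside a gene interval, called gene windows below. Deserts of chromosome 6 averaged 10.9 reads per CpG in WT and 9.54 in TetTKO, where the other chromosomes, except chromosome 2 with 1 window of very high coverage, had 8.18 to 8.54 in WT. The chromosome 6 deserts are included, and the part of that coverage in their values was not tested.

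Desert methylation was high in WT and lower in TetTKO nearly everywhere. The mean over windows was 77.7% in WT (SD over windows 6.70) and 68.7% in TetTKO (SD 6.84), with a difference of -9.01 percentage points (SD over windows 4.89; SD over the 19 chromosomes 0.521). Summed over reads the shares were 78.6% (exact 95% binomial interval 78.57 to 78.61) and 70.1% (70.03 to 70.07). The desert beside Lrrc4c, nearly all of it 1 window, gave 1520133 of the 11916013 WT read calls, so means over windows are used from here on. These intervals cover counting error only, and are too narrow even for that because 1 read can enter at several CpGs and PCR copies share a molecule. TetTKO was lower in 96.7% of desert windows, beside 86.8% of all windows. The chromosome means differed by -7.73 points on chromosome 7, the smallest difference, to -9.82 points on chromosome 16.

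The whole distribution of window levels was shifted, rather than a tail of it. Windows over 80% methylated made up 41.7% of desert windows in WT and 2.45% in TetTKO. At the other end, only 148 windows, 0.436%, were under 50% in WT, and 381 were in TetTKO. The middle 90% of windows spanned 65.5% to 86.0% in WT and 56.7% to 78.5% in TetTKO.

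**Figure D1:**
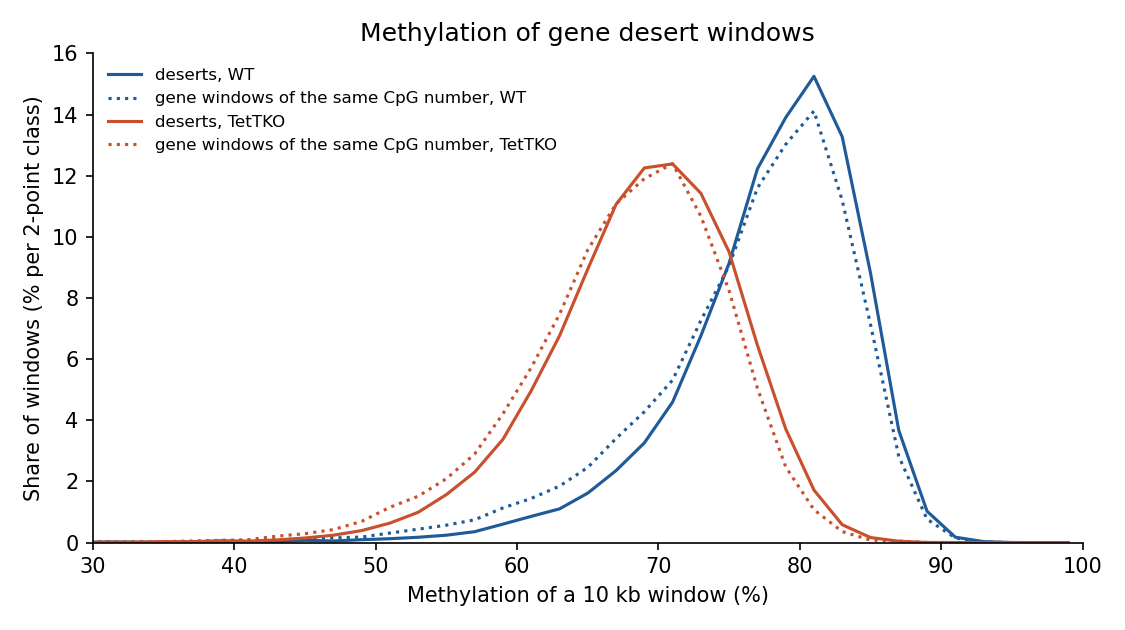
Distribution of the methylation level (x axis, %) over desert windows (solid lines) and over gene windows weighted to the same CpG numbers (dotted lines), as the share of windows per class of 2 points (y axis); blue is WT and orange TetTKO. The desert curves peak near 81% in WT and 71% in TetTKO, and lie slightly to the right of the dotted curves.

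Single CpGs moved from mostly methylated to intermediate. Among the 14103 desert CpGs read exactly 10 times in both libraries, 68.1% had 8 to 10 methylated reads in WT and 44.9% in TetTKO. CpGs with 3 to 7 methylated reads went from 28.6% to 51.3%, while those with at most 2 stood at 3.28% and 3.75%. In gene windows the intermediate share went from 28.6% to 45.5%, and the share with at most 2 methylated reads from 6.95% to 5.16%, over 60019 CpGs. Sites with at most 2 methylated reads were thus rarer in deserts than in gene windows in both libraries. These gene windows were not matched on CpG number, with a median of 63 CpGs against 32 in deserts. The part of CpG number in this comparison was not tested.

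A window of 10 kb is a noisy unit. When each desert window was split into its first and last 5 kb, the difference between TetTKO and WT in the 2 stretches had a Pearson correlation of 0.0990 over 33120 windows, and from the spread between them the error SD of a window's difference was 4.44 points. That is nearly the full spread of 4.84 points among these windows. WT levels of the 2 stretches had a correlation of 0.244 and TetTKO levels of 0.297. Windows share libraries and depth, so these values describe the data and carry no test. This error SD also holds any real differences between the 2 stretches of a window. How much the difference varied from 1 desert window to another was thus mostly of the size of the spread within windows. In gene windows the correlation of the difference was 0.303, and the error SD 4.06 points of a spread of 5.63. A value for single windows does not measure the error of the mean difference of -9.01 points.

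The difference between the libraries shrank as CpG number rose. Windows of 20 to 29 listed CpGs, 13120 of the members, averaged 76.0% for WT and 66.2% for TetTKO, differing by -9.81 points (SD over windows 5.31). With 40 to 49 CpGs the levels were 79.3% and 70.9% and the difference -8.42 points (SD 4.19). With 70 to 99 CpGs they were 80.6% and 75.1%, a difference of -5.53 points over 1130 windows (SD 4.11). The 144 windows of at least 100 CpGs had 74.6% and 71.6%, a difference of -3.01 points (SD 4.67), and 14 of them were under 50% in WT.

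**Figure D2:**
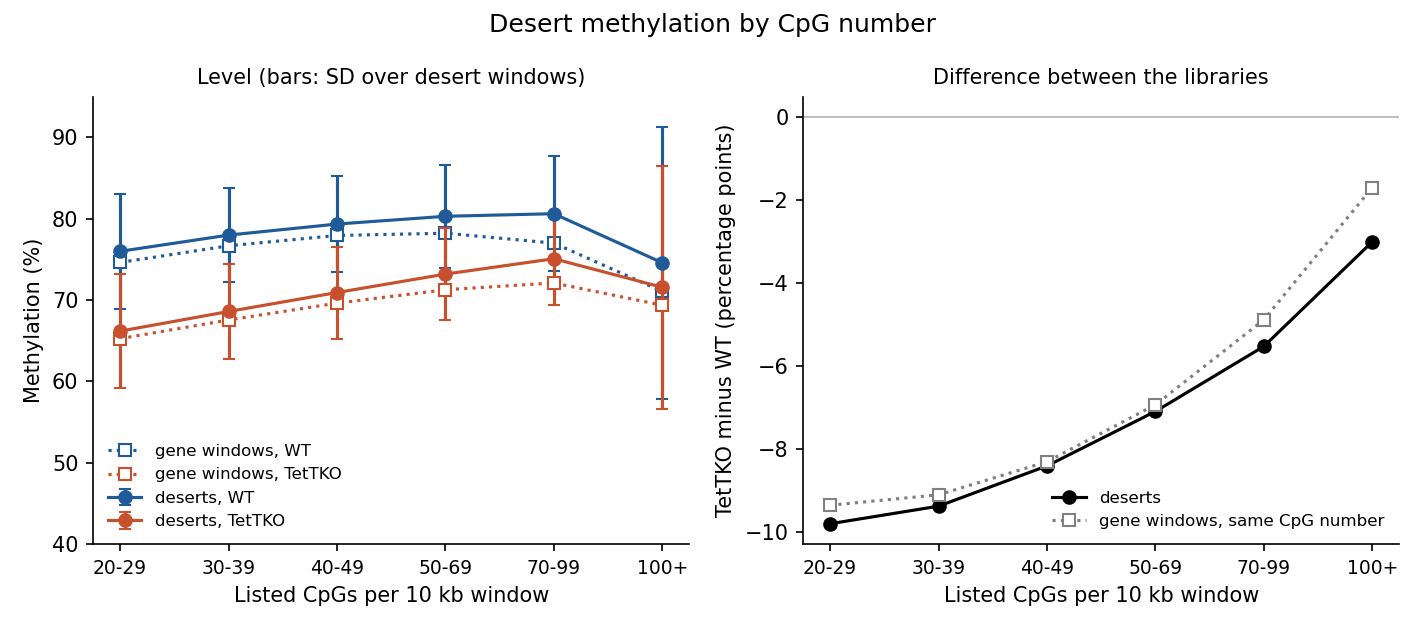
Left, mean methylation (%) of desert windows (filled circles, bars show the SD over windows) and of gene windows of the same CpG number (open squares) by listed CpGs per window, WT in blue and TetTKO in orange; right, TetTKO minus WT in percentage points. The desert difference runs from -9.81 points at 20 to 29 CpGs to -3.01 at 100 or more, and that of the gene windows from -9.36 to -1.70.

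Gene windows with the same CpG number differed nearly as much between the libraries as deserts did. Weighted to the CpG numbers of the deserts, 70999 gene windows averaged 76.2% for WT and 67.5% for TetTKO, which is -8.69 points. Deserts therefore stood 1.52 points above gene windows in WT, 1.20 points above in TetTKO, and -0.32 points from them in the difference. The excess in WT was above 0 on 19 of 19 chromosomes, from 0.607 to 2.77 points. The excess in the difference was below 0 on 16 of 19, from -1.22 points on chromosome 14 to 0.377 on chromosome 6, with an SD over chromosomes of 0.437. It thus varied between chromosomes by more than its size, and without chromosome 6 it was -0.36 points. Without the match on CpG number the gene windows, with a median of 63 CpGs against 32, had a difference of -5.96 points, and deserts stood 1.30 points below them in TetTKO (-1.30).

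Desert windows that were at least 10 points lower in TetTKO numbered 14296, or 42.1%, against 24.1% of all windows. Gene windows of the same CpG number gave 40.03%, so the share in deserts lay close to that of genes of like CpG content. Windows at least 10 points higher numbered 56, or 0.165%, against 1.25% of all windows and 0.383% of the matched gene windows. With an error SD of 4.44 points per window, on which side of 10 points a single window falls is uncertain.

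What the gene windows were made of changed the comparison. Against genes under 1 FPKM in both RNA libraries, deserts had an excess of -0.12 points in the difference, and against genes of at least 1 FPKM in both, -1.001. In WT the excess was 1.21 points against the first and 2.07 points against the second. Mean coverage per CpG of the matched gene windows was 8.67 in WT for the silent genes and 9.38 for the expressed genes, with 8.97 in the deserts. The desert mean includes the chromosome 2 window of very high coverage, and the desert median was 8.30. When gene windows were kept only if they lay at least 50 kb from both ends of their gene, a choice made after the data were seen, the excess in the difference was -0.067 points and in WT 0.983.

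Low-methylated spots were rarer in deserts than in genes. Among 100471 stretches of 1 kb with at least 5 CpGs in desert windows, 603, or 0.600%, were at most 30% methylated in WT, and 442, or 0.440%, in TetTKO. In gene windows with the same number of CpGs per kb the shares were 1.75% and 0.883%. The number present in both libraries was 292 in deserts, which is 48.4% of the WT spots and 66.1% of the TetTKO spots. In gene windows 6359 were present in both, 47.2% of 13462 WT spots, out of 6986 TetTKO spots. The share of WT spots kept was thus close in deserts and genes. The WT spots, chosen by a low WT value, averaged 18.3% in WT and 32.5% in TetTKO. Where spots were CpG-dense, at 20 or more CpGs per kb, 80 of 523, or 15.3%, were low in WT. Of those 80, 59, or 73.8%, were also low in TetTKO. Gene windows with the same number of CpGs per kb had 20.6% low in WT, and 70.8% of the dense WT spots in genes were also low in TetTKO.

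Longer deserts had a larger difference between the libraries and, with CpG number not matched, lower methylation in TetTKO. The 4974 windows in 360 deserts under 0.75 Mb averaged 78.2% for WT and 70.4% for TetTKO, differing by -7.83 points. In the 64 deserts over 2 Mb, 11404 windows had 77.3% and 67.5%, a difference of -9.86 points. The 3 classes between them gave -8.43, -8.64 and -9.28 points in order of length. Against gene windows of the same CpG numbers the excess in the difference was 0.151 points under 0.75 Mb, -0.027 at 0.75 to 1 Mb and -0.049 at 1 to 1.5 Mb. It was -0.38 at 1.5 to 2 Mb and -0.79 over 2 Mb, so the -0.32 points of all deserts came from those over 1.5 Mb. Long deserts were also poorer in CpGs, at 31.0 listed CpGs per window against 45.3, so part of this was the relation to CpG number described above.

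With the CpG number held the same, a smaller relation to length was left. Deserts over 2 Mb minus those under 0.75 Mb gave -1.20 points in the difference, 0.728 in WT and -0.48 in TetTKO. Within single chromosomes the match was by CpG class, not by exact CpG number. There the contrast in the difference was below 0 on 16 of the 18 chromosomes with both length classes. The TetTKO contrast was below 0 on 12 and the WT contrast on 4. The size of the contrast in the difference varied with CpG number. Windows of 20 to 29 CpGs had -8.88 points in the shortest deserts and -10.2 in the longest, and those of 50 to 69 CpGs -6.93 and -7.38. With only windows of at least 40 CpGs the contrast was -0.50 points.

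Gene windows showed a like relation to the length of their gene. Weighted to the CpG classes of the deserts, windows in genes under 100 kb had a difference of -7.95 points. Those in genes of 100 to 300 kb had -8.47, of 300 to 750 kb -8.86, and over 750 kb -9.17. Among genes under 1 FPKM in both libraries the ends of that range were -8.38 and -9.14 points. Long genes and long deserts thus both showed the larger differences, and whether the 2 lengths stand for the same property was not tested.

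**Figure D3:**
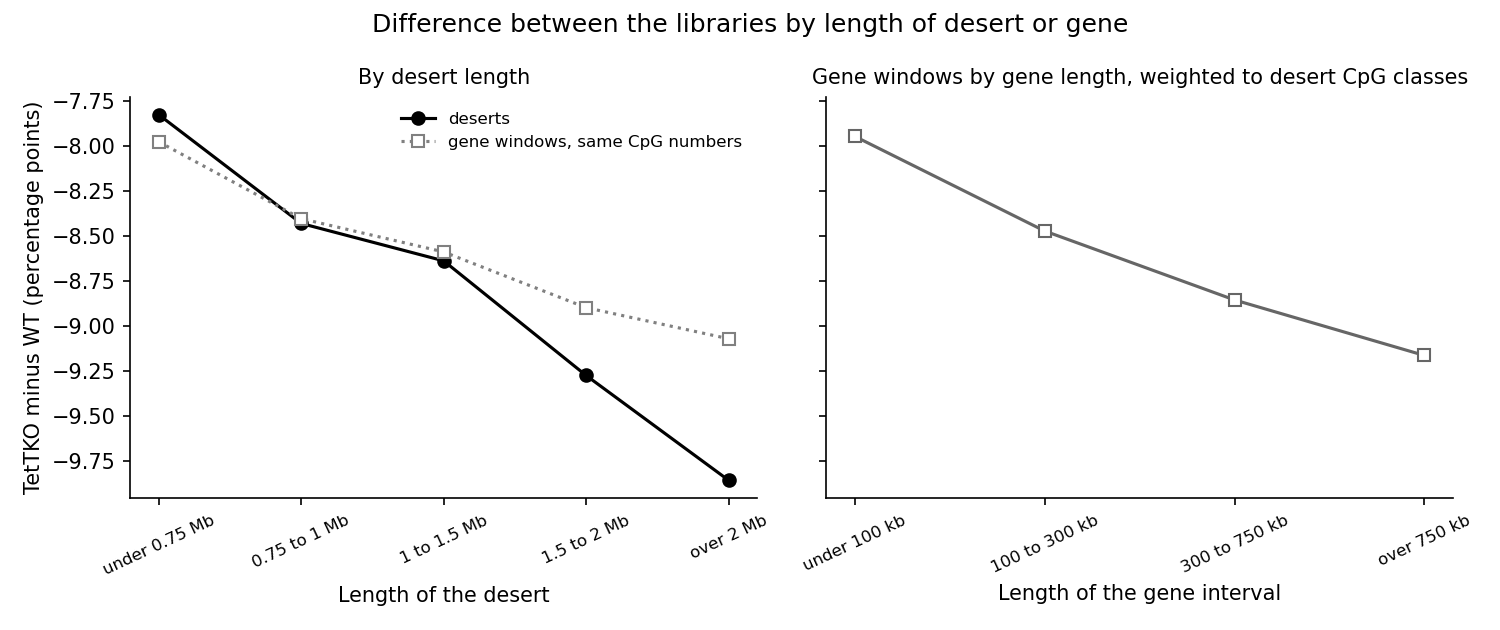
TetTKO minus WT in percentage points, as means over windows: left by desert length, with deserts as filled circles and gene windows of the same CpG numbers as open squares; right for gene windows by gene length, weighted to the desert CpG classes. Deserts run from -7.83 to -9.86 points and gene windows, by gene length, from -7.95 to -9.17; the axis does not start at 0.

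Distance from genes gave a gradient outside genes. Distance is tied to desert length, because a window far from the genes on both sides can lie only in a long desert. The relations to distance and to length were not separated. At the CpG numbers of the deserts, windows between genes but at most 50 kb from one averaged 75.6% for WT and 67.8% for TetTKO, differing by -7.79 points. The difference was -8.26 points at 50 to 100 kb, -8.48 at 100 to 200 kb and -8.66 at 200 to 300 kb. It reached -9.31 at 500 to 1000 kb and -9.56 at 1000 kb and over, where WT stood at 78.2% and TetTKO at 68.7%. Some CpG numbers were absent at these distances. The weights there covered the CpG numbers of 33690 and 32951 of the 33928 desert windows, and the part of this in the values was not tested. Beyond 200 kb the matched TetTKO level stayed between 68.68% and 68.78% while the WT level went from 77.3% to 78.2%, so the wider difference came with a higher WT level. Mean WT coverage per CpG fell from 8.56 to 8.37 reads between 200 and 1000 kb, and was 27.5 at 1000 kb and over, which includes the chromosome 2 window of very high coverage, beside Lrrc4c. Around the 200 kb limit itself, windows 180 to 200 kb from a gene differed by -8.09 points and those 200 to 220 kb away by -8.13. Around the limit of 20 CpGs, far windows of 15 to 19 CpGs differed by -9.36 points and those of 20 to 24 by -9.95.

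**Figure D4:**
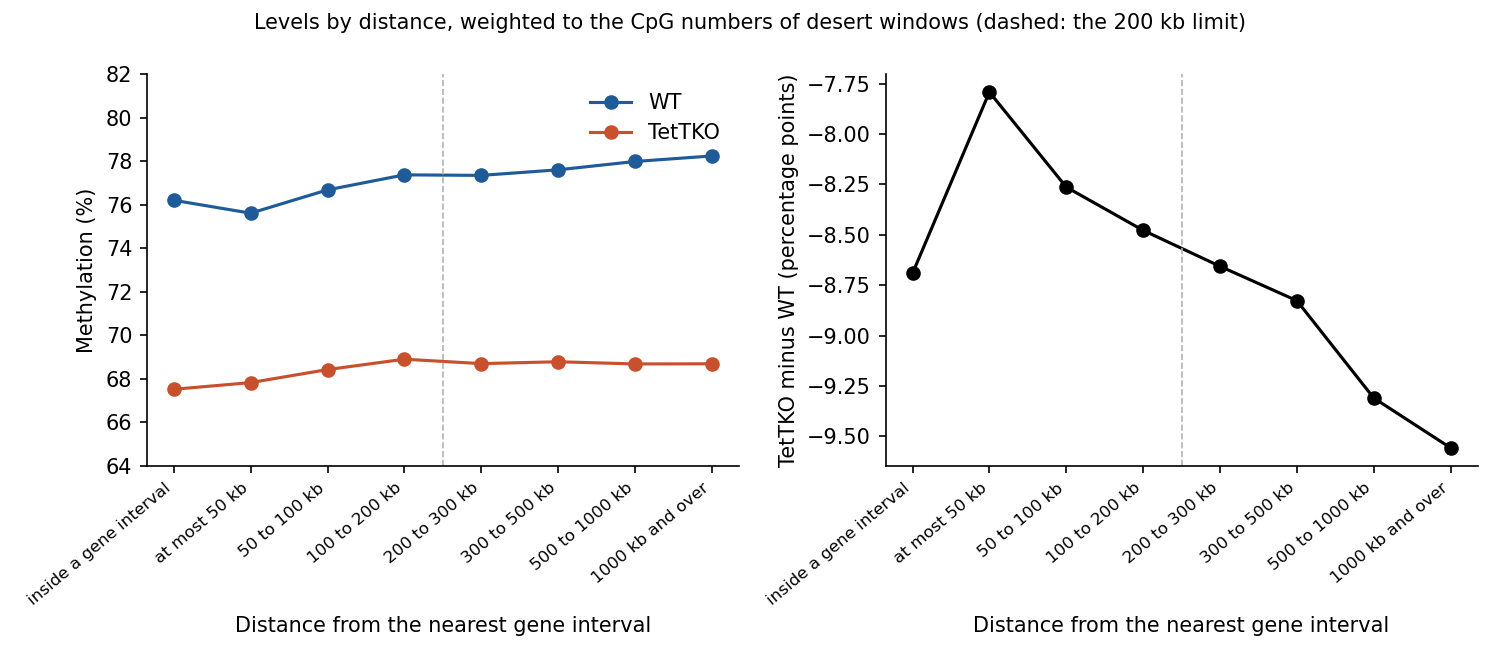
Left, mean methylation (%) in WT (blue) and TetTKO (orange), and right, TetTKO minus WT in percentage points, by distance of the window from the nearest gene interval, weighted to the CpG numbers of the desert windows; the dashed line is the 200 kb limit. Outside genes the difference runs from -7.79 points within 50 kb to -9.56 at 1000 kb and over, while windows inside genes stand at -8.69; the axes do not start at 0.

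Whole deserts differed from each other more in level than in the change. Of the deserts, 450 held at least 20 member windows. Their means in WT ran from 58.2% to 84.7% with a median of 78.4% (SD over deserts 3.59), and in TetTKO from 51.8% to 79.5% with a median of 69.03% (SD 3.77). The difference had a median of -8.82 points (SD over deserts 1.72) and lay below 0 in 449 of 450. It was at least 10 points in 99 deserts and under 5 points in 15. In WT 103 deserts had a mean of at least 80%, and in TetTKO 0 did. Desert windows 200 kb apart had a weak Pearson correlation, of 0.176 in WT and 0.211 in TetTKO over 19566 pairs, and gene windows at that distance had 0.139 and 0.167 over 33864 pairs. For the difference in deserts it was 0.0916, and 0.160 for windows 10 kb apart, over 28571 pairs. Gene windows had higher values for the difference, 0.189 at 200 kb and 0.397 at 10 kb, the latter over 61589 pairs.

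The 8 longest deserts each had a lower mean in TetTKO. The longest runs from Olfm4, a secreted glycoprotein gene, to the protocadherin gene Pcdh17 (mm9 chromosome 14, 80421738 to 84843369). Its 298 windows had 78.4% in WT (SD over windows 5.20) and 68.4% in TetTKO (SD 6.44). WT windows ranged from 54.0% to 88.2% and TetTKO windows from 46.4% to 82.6%, so the libraries overlapped, but 296 of the 298 windows were lower in TetTKO. Its level sloped toward Pcdh17. The 100 windows nearest to Olfm4 had 80.7% and 72.3%, the middle 99 had 78.6% and 67.9%, and the 99 nearest to Pcdh17 had 75.8% and 64.98%. Their CpG number went from 34.9 through 28.8 to 26.7 per window, and the part of this in the slope was not tested.

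**Figure D5:**
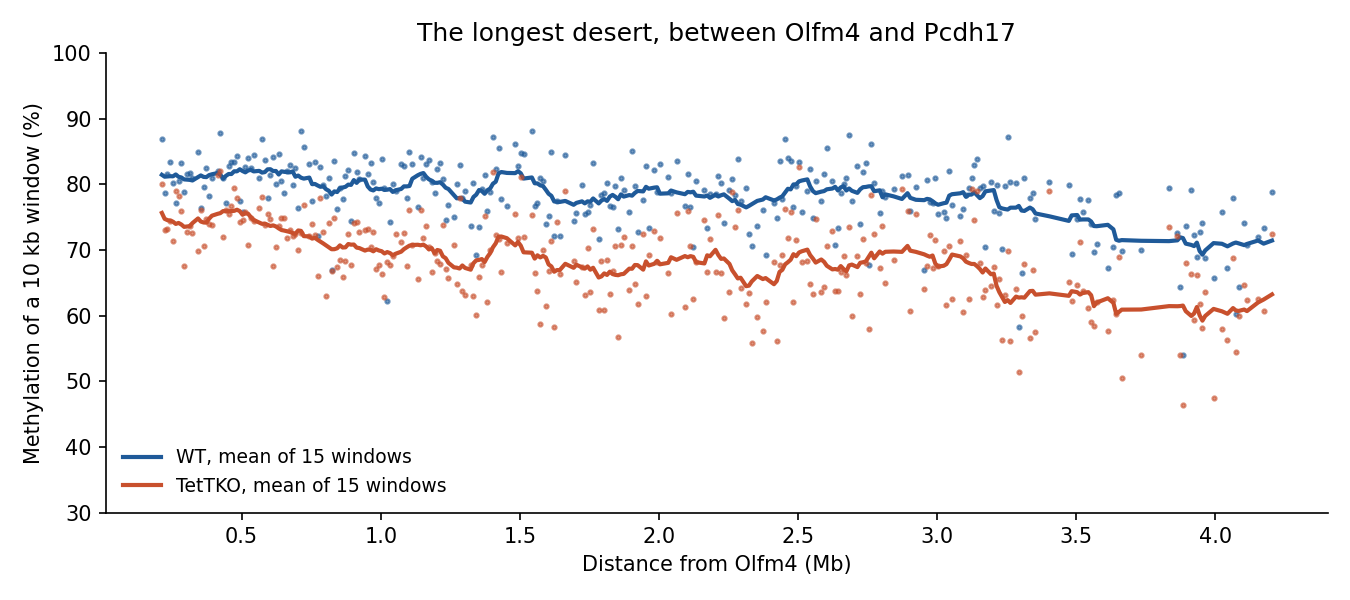
Methylation (%) of each member window of the longest desert against its distance from Olfm4 in Mb (points), with a running mean of 15 windows (lines), WT in blue and TetTKO in orange. TetTKO runs below WT along the desert and both are lowest near Pcdh17, where the last 99 windows average 75.8% and 64.98%.

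The desert between Ptprd, a receptor tyrosine phosphatase gene, and Tyrp1, a melanin synthesis gene (chromosome 4, 76240204 to 80480133), was less methylated, at 74.8% and 65.2% over 256 windows. Its low levels lay next to Ptprd, where 86 windows had 69.6% in WT and 58.7% in TetTKO, against 77.9% and 69.5% in the 85 windows next to Tyrp1. CpG numbers there were 27.7 and 28.9 per window. Deserts between Slc39a10 and Tmeff2 (chromosome 1), Lrrc4c and B230118H07Rik (chromosome 2), Sel1l and Flrt2 (chromosome 12) and Dsel and Cntnap5a (chromosome 1) lay between 77.5% and 78.4% in WT and differed by -9.08, -10.1, -10.1 and -8.74 points. The largest differences of the 8 were those of the desert between Nudt12 and the ephrin gene Efna5 (chromosome 17, 59152746 to 62952305), at 79.3% and 68.4%, and of the desert between the cadherin genes Cdh6 and Cdh9 (chromosome 15, 13103395 to 16707855), at 78.8% and 67.6%. The latter changed by -11.2 points (SD over 274 windows 4.65), against -8.94 for gene windows of its CpG numbers.

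The deserts with the lowest WT levels were chosen by their values and are described without a test. The lowest, between Adam6a and Zfp386 (chromosome 12, 114784626 to 117285934), had 58.2% in WT (SD over 59 windows 7.996) and 51.8% in TetTKO. The variable segments of the immunoglobulin heavy chain locus lie there but are not among the gene intervals used, so it is a desert by the rule and not in the usual sense. The next was the interval from Snrpn, an imprinted gene expressed from the paternal copy, to B230209E15Rik (chromosome 7, 67285106 to 68674295), with 60.2% and 53.9% over 33 windows. The interval between the natural killer cell receptor genes Klra1 and Klra2 (chromosome 6, 130336893 to 131169252) had 62.7% and 58.4% over 26 windows. That between the retinoic acid receptor gene Rarb and the thyroid hormone receptor gene Thrb (chromosome 14, 17407725 to 18493473) had 66.0% and 60.1% over 43 windows. Gene windows of the same CpG numbers had 74.7% to 75.8% in WT, and these deserts stood at -17.3 to -9.24 points from them. Their differences, from -4.29 to -6.43 points, were smaller than those of most deserts. Coverage was uneven among these deserts. Those beside Adam6a and Klra1 had 20849 and 13531 WT read calls on 1725 and 821 CpGs. Those beside Snrpn and Rarb had 6612 and 10204 on 824 and 1259 CpGs. The part of coverage in their levels was not tested.

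The most methylated deserts were richer in CpGs. Between 4933406K04Rik and 4930465M20Rik (chromosome 12, 107954535 to 108961952), 60 windows of 68.1 CpGs on average had 84.7% in WT (SD 3.04) and 79.5% in TetTKO (SD 2.56). The desert beside Tshz1, a zinc finger transcription factor gene (chromosome 18, 83495277 to 84181018), had 84.7% and 77.5%. That between Maf, a bZIP transcription factor gene, and Dynlrb2 (chromosome 8, 118230795 to 119028914) had 84.3% and 76.7%. That between the glutaredoxin gene Glrx3 and Tcerg1l (chromosome 7, 144660278 to 145400654) had 83.6% and 77.0%. These 4 exceeded gene windows of their CpG numbers by 5.60 to 7.24 points in WT.

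At the ends of the change, 4 deserts fell by close to 12 points and 1 did not fall. The largest falls were between Cadm2, a synaptic adhesion gene, and Speer2 (chromosome 16, 67621154 to 69857118; 77.9% and 65.9% over 158 windows), between the protocadherin gene Pcdh9 and 4921530L21Rik (chromosome 14, 94287952 to 96280484; 80.1% and 68.2% over 145 windows), between Gm2516 and Aga (chromosome 8, 51501444 to 54597055; 75.7% and 63.8% over 190 windows) and between G6pd2 and Arap2 (chromosome 5, 62201717 to 62993684; 78.0% and 66.1% over 23 windows). Gene windows of their CpG numbers differed by -9.04 to -9.19 points. In contrast, 23 windows between Gm4745 and Obox2, of the oocyte-specific homeobox cluster (chromosome 7, 15251346 to 15974199), had 71.1% in WT (SD 4.31) and 71.3% in TetTKO (SD 4.66), where matched gene windows differed by -8.92 points. The desert between Cntnap5a and Tsn (chromosome 1, 118477252 to 120195094) differed by -3.75 points over 91 windows, with 72.0% and 68.2%. On its other side Cntnap5a borders the desert to Dsel, which differed by -8.74 points. The desert at the start of the chromosome 3 coordinates, beside Hnf4g (3000815 to 3508029), and that beside Tshz2 on chromosome 2 differed by -3.20 and -3.16 points.

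Single windows at the extremes, chosen by their values, were often not uniform. The lowest in WT, between Ywhaq and 2410018L13Rik (chromosome 12, 22510000 to 22519999), had 0% of 148 reads (exact 95% limits 0 and 2.46) and, in TetTKO, 2.63% of 114 (0.546 and 7.498), from 20 CpGs that all lay in its first 5 kb. A window between Pxmp3 and 1700008P02Rik (chromosome 3, 5860000 to 5869999) had 2.73% and 3.03%, with 144 and 200 reads per CpG. Its first 5 kb held 1.75% and 2.30%, and its last 5 kb 75% and 65.8%. Whether the coverage comes from repeated sequence was not tested. In all, 46 desert windows had over 2 times the median coverage in either library. The other 2 of the 4 lowest windows, both on chromosome 12 (20200000 to 20209999 and 24480000 to 24489999), stood at 12.6% and 12.8% for WT and at 10.3% and 14.3% for TetTKO.

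In 3 of the 4 largest rises, taken at 40 or more CpGs, the rise lay in the last 5 kb. The window at chromosome 4, 39660000 to 39669999, 261 kb from a gene, between 1700009N14Rik and Aco1, had 55.4% of 688 reads in WT (51.6 to 59.1) and 79.1% of 699 in TetTKO (75.9 to 82.1). Its last 5 kb went from 45.0% to 78.9%, whereas its first 5 kb had 76.3% and 79.5%. Windows between Mki67 and C230079O03 (chromosome 7, 143230000 to 143239999) and beside Tshz2 (chromosome 2, 169130000 to 169139999) had the same form, their last 5 kb holding 43.5% and 37.9% in WT, then 75.7% and 72.4% in TetTKO. The window between Tle4 and Psat1 (chromosome 19, 14960000 to 14969999) went from 54.2% to 74.0%. In the 4 largest falls both 5 kb stretches were lower in TetTKO. The largest was at chromosome 3, 24800000 to 24809999, between Rprl2 and the neuroligin gene Nlgn1, with 82.2% of 332 reads (77.7 to 86.2) and 58.9% of 375 (53.8 to 63.96). It was followed by windows bordered by the neural adhesion gene Ncam2 (83.9% and 61.4%), the synaptic gene Lrrtm4 (84.98% and 63.3%) and the latrophilin gene Lphn3 (88.3% and 66.9%).

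The windows with most CpGs showed both states. One between 5730507C01Rik and 1700030C10Rik (chromosome 12, 20230000 to 20239999) listed 247 CpGs and had 82.5% in WT and 78.4% in TetTKO, at 22.6 and 28.5 reads per CpG. One between C530044C16Rik and Nfe2l3 (chromosome 6, 51120000 to 51129999) listed 244 CpGs and had 16.1% of 3438 reads in WT (14.8 to 17.3) and 24.3% of 2525 in TetTKO (22.7 to 26.0). The other 2, with 159 and 155 CpGs on chromosome 12, stood at 84.4% and 35.2% for WT and at 81.5% and 32.3% for TetTKO.

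Genes at the edges of deserts had a lower median level than all genes. Of the 1253 genes that flank a desert, 30.6% had at least 1 FPKM in WT and 33.3% in TetTKO, against 46.6% and 47.8% of all 21686 genes of these chromosomes. At a limit of 0.1 FPKM the share of flanking genes in WT was 48.7%, against 63.9% of all genes, and 26.5% of flanking genes were listed at 0, against 22.0%. The median of flanking genes was 0.08 FPKM in WT and 0.15 in TetTKO, and that of all genes 0.64 and 0.76. Of 124 genes at deserts over 2 Mb, 24.2% reached 1 FPKM in WT. Flanking genes were also longer, at a median of 43.9 kb against 15.5 kb.

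A larger share of the listed adhesion and synaptic genes than of all genes flanked a desert, although they were 60 of the 1253 flanking genes. Of 110 measured adhesion and synaptic molecules, 60 flanked a desert, or 54.5%, against 5.78% of all genes, and 25 of these flanked one over 2 Mb. The list was picked by hand with earlier results of these data known. It names only some members of certain families, such as Lrrc4c, Ctnna2, Ctnna3, Cadm1 and Cadm2. The part of that choice in the share was not tested. Only 6 of the 60 flanking genes of this list had at least 1 FPKM in WT, where 30.6% of all flanking genes and 46.6% of all genes did. The highest were the ephrin receptor Epha4, with 22.97 FPKM in WT and 22.6 in TetTKO, and Cadm1, with 7.20 and 10.6 FPKM. Ncam1 had 2.48 and 1.32 FPKM and the teneurin Odz3 1.99 and 2.49. Of 87 developmental regulators 32 flanked a desert, and 4 of these had at least 1 FPKM in WT. Sall1, a zinc finger gene of kidney development, had 6.71 and 6.59 FPKM, Foxp1 6.29 and 5.56, Sox11 2.54 and 3.40, and Prdm1, a germ cell specifier, 1.77 and 1.28. Of 162 receptors and channels 33 flanked a desert. The potassium channel gene Kcnj3 had 1.15 and 1.40 FPKM, while the glutamate receptor gene Gria4 (0.53 and 0.88 FPKM) and the potassium channel gene Kcnn2 (0.29 and 0.53 FPKM) stayed under 1 FPKM. On none of the 3 lists did a flanking member that reached 1 FPKM in either library differ 2-fold, at log2((TetTKO + 1)/(WT + 1)). The lists cover 7, 7 and 1 such members, and Foxp1 lies on chromosome 6. RNA levels of list members that flank no desert were not examined, so these counts do not set the flanking members apart.

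Among the 421 flanking genes that reached 1 FPKM in WT or TetTKO, 18 were at least 2-fold higher in TetTKO, or 4.28%, against 1.68% of all genes, and 3 were at least 2-fold lower, or 0.713%, against 0.830%. A gene that reached 1 FPKM only in TetTKO could differ only upward. Among genes of 1 to 5 FPKM in WT, 9 of 142 flanking genes were 2-fold higher, against 2.36% of 3134 genes that flank none. At 5 to 20 FPKM it was 4 of 132, against 0.860%, and at 20 FPKM and over 2 of 109, against 0.187%. Under 1 FPKM in WT the order was the other way, with 3 of 38, or 7.89%, against 11.1% of 459. The next genes were picked for their values. With the pseudocount of 1 FPKM, the highest ratios were those of Dcdc2c (7.06 and 34.4 FPKM), the ectonucleotidase gene Nt5e (2.28 and 9.83) and Lphn2, a latrophilin receptor gene (1.41 and 6.49). The 3 lower genes were Tet2 itself, which borders a desert of 692 kb (14.9 and 4.13 FPKM), Triml1 (32.7 and 13.2) and the phosphofructokinase gene Pfkp (112 and 46.99). Each of these ratios compares 1 library with 1 library.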

How the data were processed

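Methylation fractions and counts of methylated and of all reads per CpG were deposited by the authors. The submitters' processing notes name, without settings, the mm9 build, the aligner Bismark 0.7.9 with Bowtie, and Trim Galore and SAMtools. Every listed CpG had a coverage of at least 5 in both libraries, and strands appear merged. The authors deposited FPKM per gene with its interval, for which the same notes list TopHat2 2.0.2 and Cufflinks 2.0.2. Which gene models were used is not stated there, and RNA depth is unknown. The listing of CpGs depends on coverage, so CpG number is not CpG density. The fraction column was not used in the main values.

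A window's level was its methylated reads over all its reads, and group values are means over windows (Python 3.11.15, pandas 2.3.3, scipy 1.17.1). A gene window lay wholly inside 1 gene interval. Matching weighted gene windows to the deserts by exact CpG number, or by CpG class for gene length. The contrast of long and short deserts was matched on exact CpG number, but on CpG class within single chromosomes. Desert length is the gap between the flanking gene intervals, or to the outermost listed CpG for 5 deserts open at a chromosome end. FPKM was compared as log2((TetTKO + 1)/(WT + 1)) with a pseudocount of 1, which understates low genes. Calculations were tested on simulated data.

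Deserts named are the 8 longest and, with at least 20 windows, 4 each of the highest and lowest WT level and of the largest and smallest fall. Windows named are 4 each of the lowest WT level, of the largest rise and fall at 40 or more CpGs, and of the most CpGs. Genes named are the 4 highest in WT per list, of which 1 is not reported here. The members, lists and rules were chosen with earlier results of these data known. No sequence is shown, since no genome of the mm9 build was used here.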

Additional observations from a re-analysis of the deposited data

How the results depend on the processing

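No paired analysis was possible because each genotype had 1 library of each kind. The desert difference between TetTKO and WT stayed below 0 in its 10 alternatives, and the desert excess over gene windows stayed above 0 in WT and below 0 in the difference in 21 of 21, but their sizes moved. The cause of these changes was not tested. With 1 library per genotype and a median of 9 or 10 reads per CpG, single CpGs and single windows are imprecise.

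The difference, -9.01 points, was -8.85 as a mean of CpG fractions, -9.25 at a coverage of at least 10, -7.54 at 40 or more CpGs, and -8.56 and -9.74 at 100 and 500 kb from genes. Windows at least 10 points lower numbered 8983 at that coverage, 2782 at 40 CpGs and 6469 at 500 kb, where there were fewer windows, 405 at 20 points and 1755 after centring on the median of all windows, -6.74 points. Windows at least 10 points higher numbered 126, 22 and 19 in the first 3 of these settings, 126 at 100 kb, 6 at 20 points and 366 after centring. These are counts from differing numbers of windows, not shares. The 6469 at 500 kb came from 9606 windows at 500 to 1000 kb and 3644 farther away. By CpG number, the share at least 10 points lower was 49.6% at 20 to 29 CpGs, 36.1% at 40 to 49 and 22.8% at 50 to 69.

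The desert excess over matched gene windows in the difference, -0.32 points, was -0.20 at 40 CpGs, -0.18 and -0.70 at 100 and 500 kb, -0.36 without chromosome 6, -0.42 with gene windows of any overlap, -0.12 and -1.001 for silent and expressed genes, -0.44 with a match on WT coverage, -0.36 to -0.26 with 1 chromosome left out, and -0.24 without windows under 50% in WT. Without a match on CpG number it was -3.05, and the TetTKO excess, 1.20, turned to -1.30; the unmatched gene windows hold more CpGs. In WT the excess, 1.52, was 1.59 from CpG fractions, 1.23 at a coverage of 10, 1.93 at 40 CpGs, 1.47 and 1.73 at 100 and 500 kb, 1.92 with any overlap, 1.21 and 2.07 for silent and expressed genes, 1.75 with no match, 1.47 with coverage, 1.42 within chromosomes, 1.43 to 1.56 with 1 left out, and 1.35 without windows under 50%. Under 3 settings chosen after seeing the data the WT excess was 0.983 for gene windows 50 kb from gene ends, 0.873 with a match on the WT level of the other 5 kb, and 1.59 without the 4 deserts of lowest WT level; the first 2 gave -0.067 and -0.20 in the difference.

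Longest minus shortest deserts, -1.20 points, was -0.50 at 40 CpGs, -1.31 on a grid shifted by 5 kb and -1.35 for 30 to 39 CpGs. At 500 kb from genes this contrast could not be formed. A desert under 0.75 Mb with genes on both sides cannot hold a window that far from both. The highest minus the lowest CpG class was 6.32 at a coverage of 10, 5.40 at 40 CpGs and 7.21 at 100 kb. Flanking genes that passed in WT made up 48.7% at 0.1 FPKM and 19.2% at 5 FPKM.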

Other observations

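The X chromosome lies outside the rule for the deserts, and E14Tg2a is a male line with 1 X. Its deserts, 45 windows by the same limits, had 75.3% methylation in WT (SD over windows 13.2) and 71.1% in TetTKO (SD 9.72), a mean difference of -4.11 points (SD 8.11), and 34 of 45 windows were lower. Autosomal desert windows of the same CpG number differed by -9.76 points, and gene windows of the X chromosome by -6.98. The X desert windows held 25.3 listed CpGs on average, at 8.63 reads per CpG in WT and 9.70 in TetTKO. X gene windows had 6.71 and 7.32 reads per CpG, and the median of autosomal desert windows was 8.30 and 9.68. X deserts were thus covered more than X gene windows, and the part of this in their values was not tested. The windows come from 1 library per genotype, and the difference between the chromosomes was not tested.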
